A study of Mus musculus with 13 samples.

Results

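The lysosomal enzymes and membrane proteins described here are 38 genes, chosen by symbol from a list of lysosomal hydrolases, lysosomal membrane proteins and the transcription factors of the Tfeb family. All 38 were found among the 33618 Ensembl genes counted in the libraries, and all 38 were among the 16753 genes that passed the filter on low counts. They comprise 11 peptidases, 10 glycosidases and sulfatases, 8 lipid hydrolases and lipid-handling proteins, 5 membrane proteins, progranulin and 3 transcription factors.

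Bulk RNA-Seq was performed on whole parametrial white adipose tissue (pmWAT), a visceral fat depot of the female mouse, to compare adipose tissue after induced loss of lamin A/C from adipocytes with that of control mice. Each of the 13 libraries came from a different mouse, 7 labelled fl/fl and 6 labelled iADKO. Between 18854223 and 19776491 counts per library fell on genes.

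In fl/fl mice (*Lmna fl/fl*), loxP sites flank exons 10 and 11 of both copies of *Lmna*, and there is no Cre. In iADKO mice (*Lmna* iADKO), the same floxed alleles are combined with 1 copy of a tamoxifen-activated Cre (Adipoq-CreERT2+/–) driven by the adiponectin promoter, which is active in adipocytes, so that other cells of the tissue are by design not recombined. Mice of both genotypes, controls included, received tamoxifen at 50 mg/kg on 5 consecutive days from 12–14 weeks of age, and pmWAT was taken 2 weeks posttamoxifen.

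Lysosomes are acidic organelles in which hydrolases break down proteins, glycans and lipids that arrive by endocytosis, phagocytosis or autophagy. Heavily glycosylated membrane proteins line the organelle, a proton pump acidifies it, and transporters export the products. Transcription factors of the MiT/TFE family (Tfeb, Tfe3, Mitf and Tfec) bind E-box-type elements that are common in promoters of lysosomal genes. In fat, adipocytes use lysosomes to turn over lipid droplets and organelles, and macrophages, which are rich in lysosomes, use them to digest lipid and debris taken up from adipocytes.

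Levels are given as CPM, that is TMM-normalized counts scaled to a common library size, and differences as log2 fold changes of iADKO relative to fl/fl with their standard error (SE). Adjusted p-values come from edgeR's quasi-likelihood test over all genes tested, with Benjamini-Hochberg adjustment and a threshold of 0.05.

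*Lmna*, the targeted gene (ENSMUSG00000028063, chr3:88387454-88417299, minus strand on GRCm39), was at 74.7 to 98.5 CPM in fl/fl (median 83.5, n = 7) and 80.1 to 109 CPM in iADKO (median 96.8, n = 6). Its log2 fold change was 0.19 (SE 0.079, edgeR adjusted p = 0.0785). *Lmna* RNA was therefore not lower in the libraries labelled iADKO, and the counts cover the whole gene in all cells of the tissue, so the floxed exons in adipocytes cannot be read from them. Each direction given here follows the labels, and iADKO stands for the libraries labelled iADKO throughout.

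The tissue label was checked against adipocyte markers, all 7 of which (*Adipoq*, *Plin1*, *Cidec*, *Adig*, *Lep*, *Lipe* and *Plin4*) were detected in every mouse. Their summed level was 7833 to 13728 CPM in fl/fl (median 10815) and 4864 to 7800 CPM in iADKO (median 5638), with *Plin4* the most abundant, and 7 of 7 passed the threshold as lower in iADKO. With the mean of 12 macrophage markers as a covariate in edgeR, 1 of 7 passed as lower and 6 had an unadjusted p under 0.05 (median log2 fold change -0.43, against -0.95 without it). Skeletal muscle markers, which would mark neighbouring tissue, summed to 9.35 to 312 CPM over all mice.

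Of the 38 lysosomal genes, 18 passed the threshold as higher in the libraries labelled iADKO, against 14.1% of all genes tested. No member passed as lower (0 of 38), against 16.3% of all genes tested, and 0 members were lower at an unadjusted edgeR p under 0.05, by DESeq2's Wald test or by limma. The median log2 fold change of the members was 0.25, against 0.033 for all genes tested. It was positive for 30 of the 38, and for 9158 of all 16753 genes tested. The changes were moderate, from 1.15-fold for *Lamp1* to 1.78-fold for *Gla* among the 18. With DESeq2's size factors in place of TMM, 18 members were higher and 0 lower. Other edgeR fits left fewer: 1 member was higher with the range of the numbers in the library names as a block, 0 with the macrophage marker mean as a covariate (0 at an unadjusted p under 0.05), and 10 without iADKO replicate 4, while without fl/fl replicate 5 the number was 23. In these other fits, in the order given, 784, 169, 1817 and 3319 of all genes were higher, against 2367 without these changes. The largest contributor to the members' RNA was *Psap*, with 25.8% of their counts, followed by *Ctsb* with 20.7%. In bulk tissue, fewer cells of a type and less RNA per cell cannot be told apart, nor can more cells and more RNA.

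**Figure D1:**
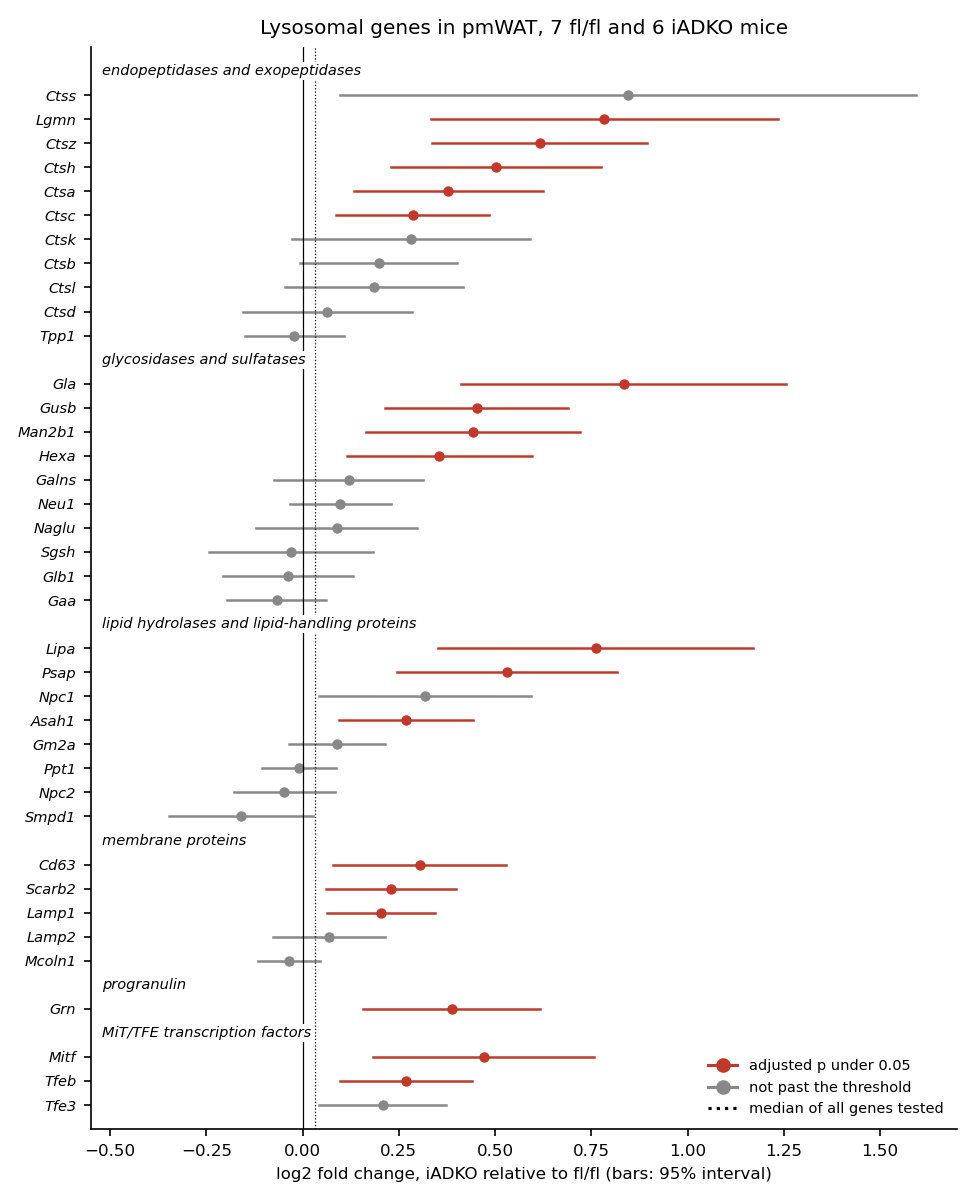
Log2 fold change of each of the 38 genes in iADKO relative to fl/fl (x axis), grouped by role, with bars for the 95% interval over 7 fl/fl and 6 iADKO mice. The 18 genes past the threshold lie to the right of 0, the interval of *Ctss* is the widest and that of *Mcoln1* the narrowest.

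The genotypes overlapped for each of the 38 genes: 0 of 38 members were higher in iADKO with no overlap between genotypes, against 2.71% of all genes tested. The same few mice lay in the overlap for most of them. iADKO replicate 6 was the lowest iADKO mouse for 34 of the 38 members and for 18 of the 18 past the threshold. fl/fl replicate 5 was the highest fl/fl mouse for 29 members, 16 of them past the threshold, and fl/fl replicate 7 was the highest for 4. How often these mice were at such extremes over all genes was not counted. These counts therefore do not set the members apart from other genes. With fl/fl replicate 5 and iADKO replicate 6 set aside, the other 5 iADKO mice all lay above the other 6 fl/fl mice for 15 of the 18 genes past the threshold. These mice were set aside after their values were seen, and the 18 genes had already been called higher. The same count was not made over all genes, so 15 of 18 does not set the members apart from other genes either.

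Summed over the 38 genes, the level was 12005 to 17025 CPM in fl/fl (median 12556) and 13586 to 18527 CPM in iADKO (median 17037). The highest fl/fl sum was that of replicate 5 and the next, 14728 CPM, that of replicate 7. The lowest iADKO sum was that of replicate 6.

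Macrophage markers moved with the lysosomal genes across the mice. Of 12 macrophage markers, 8 passed the threshold as higher in iADKO and 0 as lower, and all 12 were detected in every mouse. Their summed level in fl/fl replicates 1 to 7 was 2579, 3012, 2453, 2861, 6105, 2569 and 4189 CPM. In iADKO replicates 1 to 6 it was 5341, 5545, 5357, 6379, 5366 and 3690 CPM. The most abundant marker, *Lyz2*, was at 681 to 3086 CPM in fl/fl (median 962, n = 7) and 1559 to 2716 CPM in iADKO (median 2302, n = 6) and was not among the 8. With single mice left out, 7 to 10 of the 12 passed, and with the library-number range as a block in edgeR 0 did, although 8 had an unadjusted edgeR p under 0.05. Thus the fl/fl mice with the most lysosomal RNA (replicates 5 and 7) also had the most macrophage marker RNA of that genotype, and the iADKO mouse with the least lysosomal RNA (replicate 6) had the least. Adipocyte markers set the same 2 mice apart in the other direction: their sum was lowest among fl/fl mice in replicate 5 (7833 CPM) and highest among iADKO mice in replicate 6 (7800 CPM). Of the other cell types described below, progenitor and mesothelial sums were highest among fl/fl mice in replicate 5 (4593 and 580 CPM). They were lowest among iADKO mice in replicate 6 (2771 and 260 CPM). The endothelial sum was lowest among fl/fl mice in replicate 5 (687 CPM) and highest among iADKO mice in replicate 6 (813 CPM). Dendritic cell, neutrophil, mast cell, B cell, T cell, smooth muscle and skeletal muscle sums did not set both mice at such extremes.

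**Figure D2:**
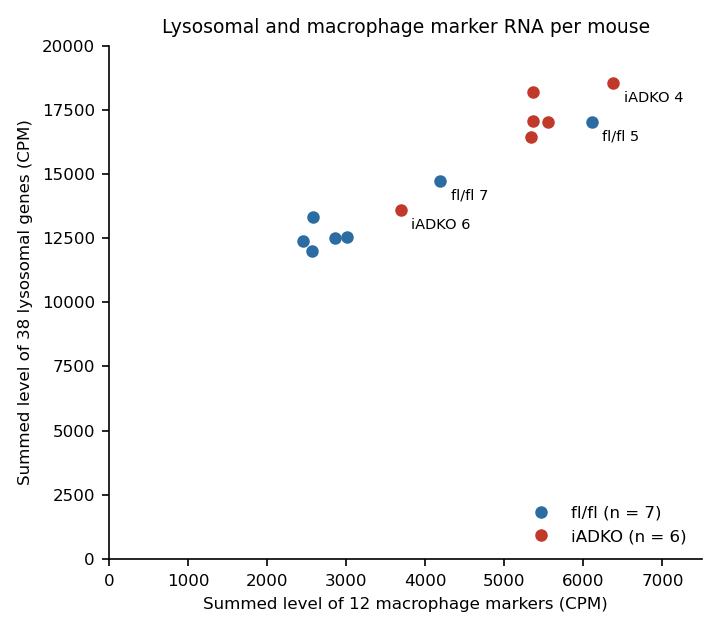
Summed level of the 38 lysosomal genes (y axis, CPM) against the summed level of 12 macrophage markers (x axis, CPM), with 1 point per mouse (7 fl/fl in blue, 6 iADKO in red). fl/fl replicate 5 lies among the iADKO mice at 6105 and 17025 CPM, and iADKO replicate 6 lies near fl/fl replicate 7 at 3690 and 13586 CPM.

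When the mean log2 CPM of the 12 macrophage markers was added to the edgeR model as a covariate, 0 of the 38 members were higher in iADKO, and 0 at an unadjusted p under 0.05. That fit was run in edgeR only. In it, *Glb1* passed as lower, with a log2 fold change of -0.31 (edgeR adjusted p = 0.0222), and the calls among all genes fell to 169 higher and 222 lower. At an unadjusted edgeR p under 0.05, 4 of the 38 members were lower, against 1399 of all 16753 genes tested. All 4 were glycosidases or sulfatases, and whether that class differs from other genes was not tested. The marker mean was 6.91 to 7.90 log2 CPM in fl/fl and 7.34 to 8.13 in iADKO, so the covariate and the genotype overlap in what they describe, and a difference in macrophage number cannot be told apart from a difference in lysosomal RNA per macrophage. The paper reports that flow cytometry of pmWAT at this time point found adipose tissue macrophages not to differ between genotypes. How that measure relates to the marker RNA here was not tested. Adipocytes have lysosomes too, and their part in the difference was not tested.

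Other cell types were read from marker lists in the same way. Lipid-associated macrophage markers were higher for 3 of 5 genes, among them *Gpnmb*, the most abundant. The count was 1 without any of fl/fl replicates 1, 2, 3, 4 and 6 or iADKO replicates 2 to 5. It was also 1 without a filter on low counts and 0 with the range block, where 4 had an unadjusted edgeR p under 0.05. By DESeq2's Wald test, by limma, with the replicate block, and without fl/fl replicate 5 or iADKO replicate 6 it was 4. The macrophage covariate left 0 of these 5 markers higher in edgeR, and at an unadjusted p under 0.05 0 were higher and 1 lower (median log2 fold change 0.0049). Their sums in fl/fl replicates 1 to 7 were 424, 488, 318, 379, 1126, 446 and 886 CPM, and in iADKO replicates 1 to 6 they were 992, 1137, 1349, 1129, 1046 and 666 CPM, so the same mice stood out. Mast cell markers were higher for 4 of 5 genes, dendritic cell markers for 3 of 5, B cell markers for 2 of 5, T cell markers for 2 of 5 and neutrophil markers for 1 of 5. The most abundant B and T cell markers, *Cd79a* and *Cd4*, were among those called. The most abundant mast cell, dendritic cell and neutrophil markers, *Kit* (log2 fold change -0.59), *Zbtb46* (-0.14) and *S100a8* (1.00), were not. *Kit* was at 88.9 CPM in fl/fl replicate 4 and 24.6 to 33.1 CPM in the other fl/fl mice, against 20.2 to 34.8 CPM in iADKO. With the range block, 4 mast cell, 1 dendritic cell, 1 B cell, 1 T cell and 0 neutrophil markers passed (4, 3, 5, 3 and 1 at an unadjusted edgeR p under 0.05). The macrophage covariate left 0 of these 5 lists' markers higher in edgeR, with 4, 0, 0, 1 and 0 at an unadjusted p under 0.05. A dendritic cell marker was also lower with DESeq2's size factors, by limma and by DESeq2's Wald test, and the replicate number as a block put 5 of 5 neutrophil markers past the threshold as higher. Without any of fl/fl replicates 1 to 4 and 6 or iADKO replicates 2, 4 and 5, 0 B cell markers passed, as without a filter, and 2 to 5 had an unadjusted edgeR p under 0.05. A single B cell marker passed without iADKO replicate 6, a single dendritic cell marker without fl/fl replicate 1 or 2 or iADKO replicate 2 or 4, and 2 neutrophil markers without fl/fl replicate 5. Of these markers, the neutrophil marker *Ly6g* was at 0 in 1 mouse. These lists summed to less than the macrophage markers in every mouse, at most 116 CPM for mast cells, 73.1 CPM for dendritic cells, 84.2 CPM for B cells, 30.7 CPM for T cells and 264 CPM for neutrophils. Endothelial markers were lower for 2 of 5 (*Kdr* and *Cdh5*), and *Pecam1*, the most abundant, was not called (log2 fold change 0.046). With the range block 1 was lower, and with the macrophage covariate 0 were (1 lower and 1 higher at an unadjusted edgeR p under 0.05). By edgeR, 0 of 4 smooth muscle markers (*Myh11* the most abundant) passed, but all 4 were higher at an unadjusted p under 0.05 (median log2 fold change 0.80). Their sum was 1987 CPM in iADKO replicate 5 and 1580 CPM in replicate 6, and the other 4 iADKO mice, at 532 to 839 CPM, lay within the fl/fl range of 388 to 876 CPM. DESeq2's Wald test called 1 of them and limma 0. With the macrophage covariate edgeR called 0, but all 4 were higher at an unadjusted p under 0.05 (median log2 fold change 1.52). In edgeR 2 passed with at least 10 counts per library, 3 without iADKO replicate 1 and 1 without fl/fl replicate 3 or iADKO replicate 4, whereas with the range block or without iADKO replicate 5, 0 passed and 0 had an unadjusted p under 0.05 (median log2 fold change 0.40 and 0.56). Also 0 by edgeR were the adipose progenitor (*Dcn*, 5 genes), mesothelial (*Upk3b*, 4 genes) and skeletal muscle markers (*Acta1*, 4 genes), with 1, 1 and 0 at an unadjusted p under 0.05, against 0, 1 and 0 called by DESeq2's Wald test and 0, 0 and 0 by limma. Other edgeR fits called some of them: 3 skeletal muscle markers were lower with the range block (median log2 fold change of the 4 -3.70), 1 progenitor marker was lower with the macrophage covariate, and 2 were higher without iADKO replicate 6 and 1 without fl/fl replicate 5. For the mesothelium, 1 was higher in each of 3 fits: with at least 10 counts per library, without fl/fl replicate 2 and without fl/fl replicate 5. The part of these cell types in the lysosomal difference was not tested.

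Among the peptidases, 5 of 11 were higher in the libraries labelled iADKO, with a median log2 fold change of 0.29 over the 11. These enzymes cut proteins inside the lysosome, and most are cathepsins of the papain family, whereas *Ctsd* encodes an aspartic protease, *Ctsa* a serine carboxypeptidase and *Tpp1* a serine peptidase.

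*Lgmn* (ENSMUSG00000021190, chr12:102359122-102414682, minus strand) encodes legumain, an asparaginyl endopeptidase that also trims cathepsins to their mature forms. It was at 131 to 291 CPM in fl/fl (median 147, n = 7). In iADKO it was at 210.4 to 368 CPM (median 316, n = 6), a log2 fold change of 0.78 (SE 0.21, edgeR adjusted p = 0.0134). iADKO replicate 6, at 210.4 CPM, lay below fl/fl replicates 5 and 7, at 291 and 261 CPM, while the other 5 fl/fl mice were all below every iADKO mouse.

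*Ctsz* (ENSMUSG00000016256, chr2:174267304-174280832, minus strand), a cathepsin that removes residues from the carboxyl end of proteins, was at 144 to 242 CPM in fl/fl (median 157, n = 7) and 205 to 305 CPM in iADKO (median 277, n = 6). Its log2 fold change of 0.62 (SE 0.13, edgeR adjusted p = 0.00374) had the smallest adjusted p of the 38 members. The pattern over mice was that of *Lgmn*: fl/fl replicates 5 and 7 exceeded iADKO replicate 6, and the other 5 fl/fl mice were below all 6 iADKO mice.

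*Ctsh*, an aminopeptidase, was at 118 to 210.1 CPM in fl/fl (median 137, n = 7) and 171 to 247 CPM in iADKO (median 214, n = 6). The log2 fold change was 0.50 (SE 0.13, edgeR adjusted p = 0.00992). fl/fl replicate 5 lay above iADKO replicates 1, 2 and 6, and fl/fl replicate 7 above iADKO replicate 6. *Ctsa*, whose product also stabilizes lysosomal β-galactosidase and sialidase, was at 181 to 280.2 CPM in fl/fl (median 194, n = 7) and 208 to 309 CPM in iADKO (median 284, n = 6), with a log2 fold change of 0.38 (SE 0.12, edgeR adjusted p = 0.0233). iADKO replicate 6 fell below 3 fl/fl mice for *Ctsa*, and the other 5 iADKO mice were at 272 CPM or more. Its exons overlap *Pltp* on the opposite strand, which had 129374 counts over all mice against 62096 for *Ctsa*. *Ctsc*, the dipeptidyl peptidase that activates granule serine proteases of leukocytes, was at 169.9 to 246 CPM in fl/fl (median 191, n = 7) and 211 to 279 CPM in iADKO (median 252, n = 6), with a log2 fold change of 0.29 (SE 0.093, edgeR adjusted p = 0.0321). Here fl/fl replicate 7 rather than 5 was the highest control, above iADKO replicates 5 and 6.

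*Ctss*, a cathepsin of antigen-presenting cells that processes the invariant chain, had the largest log2 fold change of the 38 members and did not pass the threshold. It was at 118 to 534 CPM in fl/fl (median 160.3, n = 7) and 271 to 462 CPM in iADKO (median 442, n = 6). The log2 fold change was 0.85 (95% interval 0.097 to 1.59, edgeR adjusted p = 0.0806). fl/fl replicate 5 exceeded all 6 iADKO mice at 534 CPM, whereas the 5 fl/fl mice other than replicates 5 and 7 were at or under 165 CPM, below every iADKO mouse. Without fl/fl replicate 5, the log2 fold change of *Ctss* was 1.21 (edgeR adjusted p = 0.00284), and limma on the rlog values also put it past the threshold (adjusted p = 0.031). With the macrophage covariate its log2 fold change was -0.15 (edgeR adjusted p = 0.715).

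The most abundant cathepsin RNA, *Ctsb*, had a log2 fold change of 0.20 (95% interval -0.0077 to 0.40, edgeR adjusted p = 0.131). For *Ctsk*, the collagen-degrading cathepsin of osteoclasts, the log2 fold change was 0.28 (95% interval -0.028 to 0.59, edgeR adjusted p = 0.151). That of *Ctsl* was 0.19 (95% interval -0.047 to 0.42, edgeR adjusted p = 0.208). These intervals reach past 0 on the low side and leave room for increases as large as those of the called peptidases *Ctsa* and *Ctsc*. Without fl/fl replicate 5, *Ctsb* (log2 fold change 0.24, edgeR adjusted p = 0.049) and *Ctsk* (0.37, edgeR adjusted p = 0.0366) passed as higher. With the macrophage covariate they were at -0.040 and -0.20. The aspartic protease gene *Ctsd* had a log2 fold change of 0.064 (95% interval -0.16 to 0.28, edgeR adjusted p = 0.66). *Tpp1*, the tripeptidyl peptidase, was at -0.021 (95% interval -0.15 to 0.11, edgeR adjusted p = 0.811), with an upper bound below the estimates of all 5 called peptidases.

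Of the glycosidases and sulfatases, which remove sugars and sulfate groups from glycolipids, glycoproteins and glycosaminoglycans, 4 of 10 were higher in the libraries labelled iADKO, and the median log2 fold change was 0.11.

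*Gla* (ENSMUSG00000031266, chrX:133488891-133501904, minus strand), encoding α-galactosidase A, which removes terminal galactose from globosides, was the member that rose most among those past the threshold. It was at 11.3 to 24.3 CPM in fl/fl (median 12.9, n = 7) and 18.6 to 33.0 CPM in iADKO (median 28.0, n = 6). Its log2 fold change was 0.83 (SE 0.20, edgeR adjusted p = 0.00701), which is the 1.78-fold difference given for it. iADKO replicate 6, at 18.6 CPM, fell below fl/fl replicates 5 and 7, at 24.3 and 21.0 CPM, and the other 5 fl/fl mice, at 15.4 CPM or less, were below all iADKO mice. *Gla* was the member with the fewest counts (0.142% of the members' counts), and its exons overlap those of *Rpl36a* and *Hnrnph2* on the opposite strand. The libraries were made to keep the strand, but whether counting used it is not given in the sources used here, so it is uncertain whether reads of those genes entered the *Gla* counts. The same holds for overlaps on opposite strands of *Ctsb* with *Fdft1*, *Ctsz* with *Nelfcd*, *Npc1* with *Rmc1*, *Npc2* with *Isca2* and *Sgsh* with *Slc26a11*, among others.

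*Gusb*, β-glucuronidase, was at 79.8 to 129.7 CPM in fl/fl (median 92.9, n = 7) and 98.2 to 147 CPM in iADKO (median 137, n = 6). Between genotypes, the log2 fold change was 0.45 (SE 0.11, edgeR adjusted p = 0.00827). iADKO replicate 6 was below fl/fl replicates 1, 5 and 7, while the other 5 iADKO mice were above all fl/fl mice. *Gusb* exons overlap *Vkorc1l1* on the opposite strand. *Man2b1*, the α-mannosidase of glycoprotein breakdown, was at 227 to 386 CPM in fl/fl (median 241, n = 7) and 262 to 424 CPM in iADKO (median 362, n = 6), a log2 fold change of 0.44 (SE 0.13, edgeR adjusted p = 0.0198). fl/fl replicate 5 stood above every iADKO mouse except replicate 4, and the 5 fl/fl mice other than replicates 5 and 7 were below all iADKO mice. *Hexa*, the α subunit of β-hexosaminidase, was at 187 to 289 CPM in fl/fl (median 203, n = 7) and 213 to 321 CPM in iADKO (median 282, n = 6), with a log2 fold change of 0.36 (SE 0.11, edgeR adjusted p = 0.028). fl/fl replicate 5 lay within the iADKO range, above 4 of the 6 mice.

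The other 6 genes of this class did not pass the threshold. *Galns*, a sulfatase of keratan sulfate, had a log2 fold change of 0.12 (95% interval -0.074 to 0.31, edgeR adjusted p = 0.33). The sialidase gene *Neu1* was at 0.097 (95% interval -0.034 to 0.23, edgeR adjusted p = 0.242), and *Naglu*, a glucosaminidase of heparan sulfate, at 0.089 (95% interval -0.12 to 0.30, edgeR adjusted p = 0.511). Estimates close to 0 were found for *Sgsh*, the sulfamidase of heparan sulfate, at -0.03 (95% interval -0.24 to 0.18, edgeR adjusted p = 0.839). *Glb1*, encoding β-galactosidase, was at -0.038 (95% interval -0.21 to 0.13, edgeR adjusted p = 0.74), and shares exon positions with *Tmppe* on the same strand. *Gaa*, the α-glucosidase that degrades glycogen in lysosomes, was at -0.068 (95% interval -0.20 to 0.062, edgeR adjusted p = 0.412). The intervals of all 6 end below the estimates of the 4 called glycosidases.

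Among the lipid hydrolases and lipid-handling proteins, 3 of 8 were higher in the libraries labelled iADKO, with a median log2 fold change of 0.18 and estimates of both signs.

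*Lipa* (ENSMUSG00000024781, chr19:34469712-34522163, minus strand) encodes lysosomal acid lipase, which hydrolyses cholesteryl esters and triglycerides delivered to the lysosome. It was at 135 to 327 CPM in fl/fl (median 161, n = 7) and 215 to 361 CPM in iADKO (median 339, n = 6). It had a log2 fold change of 0.76 (SE 0.19, edgeR adjusted p = 0.0097). Only fl/fl replicate 5, at 327 CPM, reached the iADKO range, above iADKO replicates 5 and 6, and the other 6 fl/fl mice were at 207 CPM or less, below all 6 iADKO mice.

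*Psap* (ENSMUSG00000004207, chr10:60113431-60138380, plus strand) encodes the precursor of the saposins, which present sphingolipids to their hydrolases. Per kb of exon, it had the highest mean level of the 38 members over the 13 mice, 1208 CPM per kb, against 406 CPM per kb for *Ctsb*, the next. Its level was 2778 to 4531 CPM in fl/fl (median 2915, n = 7) and 3526 to 5155 CPM in iADKO (median 4769, n = 6). This was a log2 fold change of 0.53 (SE 0.13, edgeR adjusted p = 0.00945). fl/fl replicate 5 exceeded iADKO replicates 1 and 6, and the other 6 fl/fl mice, at 3438 CPM or less, were below all iADKO mice.

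*Asah1* (ENSMUSG00000031591, chr8:41792846-41827851, minus strand), acid ceramidase, was at 133 to 189 CPM in fl/fl (median 140.4, n = 7) and 158 to 195 CPM in iADKO (median 178, n = 6). In iADKO the log2 fold change was 0.27 (SE 0.082, edgeR adjusted p = 0.0232). fl/fl replicate 5, at 189 CPM, was above every iADKO mouse except replicate 4, while the other 6 fl/fl mice were below all of them.

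*Npc1*, the membrane protein that exports cholesterol from the lysosome, did not pass the threshold although 6 of 7 fl/fl mice lay below all iADKO mice. It was at 71.6 to 131 CPM in fl/fl (median 76.0, n = 7) and 88.5 to 116 CPM in iADKO (median 106, n = 6). The difference amounted to a log2 fold change of 0.32 (95% interval 0.043 to 0.59, edgeR adjusted p = 0.0739). Without fl/fl replicate 5, the mouse at 131 CPM, it was 0.46 (edgeR adjusted p = 9.50e-05). With the macrophage covariate, that of *Npc1* was -0.10 (edgeR adjusted p = 0.641). Its soluble partner *Npc2*, which hands cholesterol to it, had a log2 fold change of -0.048 (95% interval -0.18 to 0.083, edgeR adjusted p = 0.577). The difference between these partners was not tested.

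*Smpd1*, acid sphingomyelinase, had the lowest log2 fold change of the members, -0.16 (95% interval -0.35 to 0.027, edgeR adjusted p = 0.176). It was at 67.1 to 105 CPM in fl/fl (median 90.8, n = 7) and 74.4 to 89.6 CPM in iADKO (median 81.8, n = 6). fl/fl replicate 5 was again apart from its genotype, here as the lowest of all 13 mice, and iADKO replicate 6 was the highest iADKO mouse. Without fl/fl replicate 5, *Smpd1* passed as lower, with a log2 fold change of -0.22 (edgeR adjusted p = 0.0119). With the macrophage covariate its log2 fold change was 0.10 (edgeR adjusted p = 0.666). *Gm2a*, the ganglioside activator protein, had a log2 fold change of 0.089 (95% interval -0.034 to 0.21, edgeR adjusted p = 0.253). *Ppt1*, a thioesterase that removes palmitate from proteins, had one of -0.01 (95% interval -0.11 to 0.086, edgeR adjusted p = 0.883), and its exons overlap *Cap1* on the opposite strand.

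**Figure D3:**
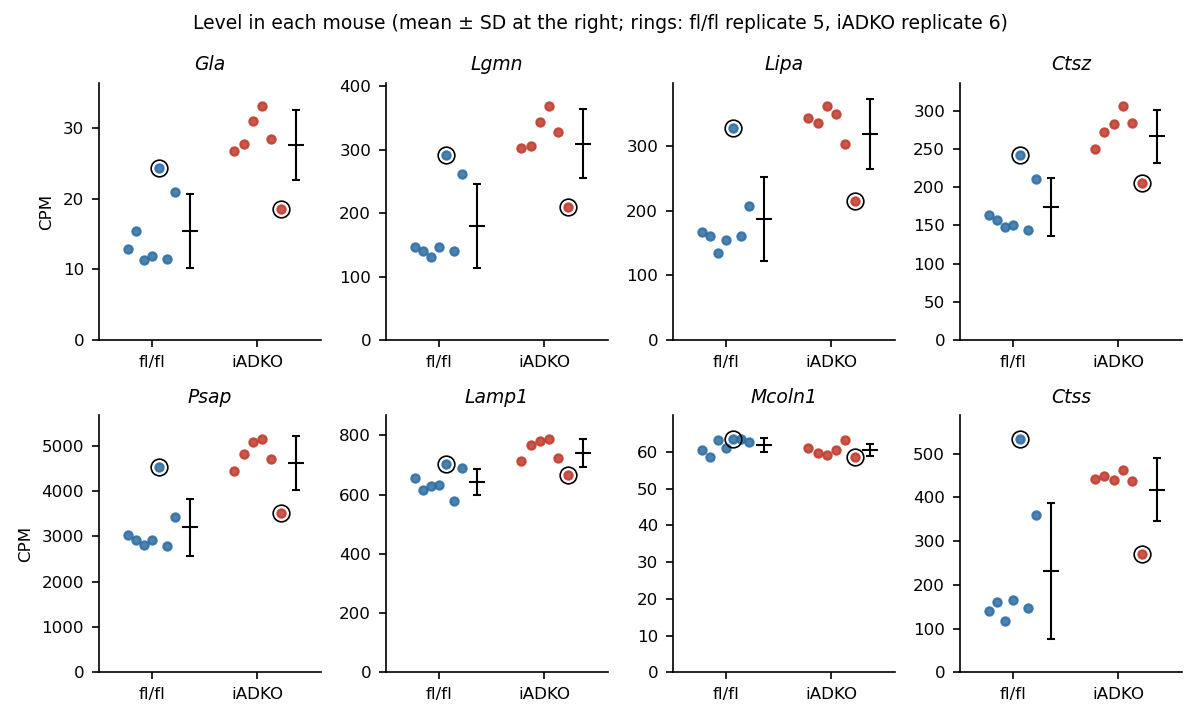
Level in CPM (y axis, from 0) of 8 lysosomal genes in each of 7 fl/fl (blue) and 6 iADKO (red) mice, with the mean and SD at the right of each group. For *Gla*, *Lgmn*, *Lipa*, *Ctsz*, *Psap*, *Lamp1* and *Ctss* the ringed fl/fl replicate 5 is the highest fl/fl mouse and the ringed iADKO replicate 6 the lowest iADKO mouse, and for *Mcoln1* all mice lie between 58.6 and 63.6 CPM.

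Of the membrane proteins, 3 of 5 were higher in the libraries labelled iADKO, all by less than the leading enzymes, and the median log2 fold change was 0.20.

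*Lamp1* (ENSMUSG00000031447, chr8:13209121-13227360, plus strand), a major glycoprotein of the lysosomal membrane, was at 579 to 704 CPM in fl/fl (median 631, n = 7) and 667 to 789 CPM in iADKO (median 747, n = 6). Its log2 fold change of 0.20 (SE 0.066, edgeR adjusted p = 0.0318) was the smallest of the 18 past the threshold. fl/fl replicates 5 and 7 were above iADKO replicate 6, and the other 5 fl/fl mice were below all iADKO mice. *Scarb2* (ENSMUSG00000029426, chr5:92589169-92654692, minus strand), the receptor that carries glucocerebrosidase to the lysosome, was at 216 to 271 CPM in fl/fl (median 229.8, n = 7) and 240.1 to 319 CPM in iADKO (median 272, n = 6). Between genotypes, the log2 fold change was 0.23 (SE 0.078, edgeR adjusted p = 0.039). fl/fl replicate 5, at 271 CPM, lay above iADKO replicates 1, 2 and 6, and the other 5 fl/fl mice apart from replicate 7 were below all iADKO mice.

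*Cd63*, a tetraspanin of late endosomes and lysosomes, was at 208 to 326 CPM in fl/fl (median 227, n = 7) and 266 to 347 CPM in iADKO (median 305, n = 6). It had a log2 fold change of 0.30 (SE 0.11, edgeR adjusted p = 0.0413). The highest control was fl/fl replicate 7, at 326 CPM, above 4 of the 6 iADKO mice. *Lamp2*, the partner of *Lamp1* that is also needed for chaperone-mediated autophagy, had a log2 fold change of 0.069 (95% interval -0.076 to 0.21, edgeR adjusted p = 0.458). *Mcoln1*, a calcium channel of the lysosomal membrane, was at 58.6 to 63.6 CPM in fl/fl (median 62.8, n = 7) and 58.7 to 63.3 CPM in iADKO (median 60.1, n = 6). Its log2 fold change was -0.035 (95% interval -0.12 to 0.045, edgeR adjusted p = 0.495), the narrowest interval of the 38 members, with all 13 mice interleaved.

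*Grn* encodes progranulin, a secreted and lysosomal glycoprotein that is cleaved to granulins. It was at 409 to 598 CPM in fl/fl (median 441, n = 7) and 446 to 700.5 CPM in iADKO (median 606, n = 6). This was a log2 fold change of 0.39 (SE 0.11, edgeR adjusted p = 0.015). fl/fl replicate 5, at 598 CPM, lay above iADKO replicates 1, 5 and 6, and the fl/fl mice other than replicates 5 and 7 were below all iADKO mice.

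Of the transcription factors, 2 of 3 were higher in the libraries labelled iADKO, with a median log2 fold change of 0.27. Their activity is set largely by phosphorylation and nuclear entry, which RNA levels do not show.

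*Tfeb* (ENSMUSG00000023990, chr17:48047837-48103348, plus strand) was at 18.7 to 23.1 CPM in fl/fl (median 21.0, n = 7) and 20.9 to 28.8 CPM in iADKO (median 24.5, n = 6). In iADKO the log2 fold change was 0.27 (SE 0.08, edgeR adjusted p = 0.0209). iADKO replicate 6, at 20.9 CPM, was below 5 of the 7 fl/fl mice, and the other 5 iADKO mice were above every fl/fl mouse.

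*Mitf* (ENSMUSG00000035158, chr6:97783950-97998323, plus strand), the family member known from melanocytes, osteoclasts and mast cells, was at 22.9 to 42.9 CPM in fl/fl (median 26.8, n = 7) and 30.4 to 42.0 CPM in iADKO (median 41.2, n = 6). The difference amounted to a log2 fold change of 0.47 (SE 0.13, edgeR adjusted p = 0.0173). fl/fl replicate 5 was the highest of all 13 mice at 42.9 CPM, while the other 6 fl/fl mice, at 30.1 CPM or less, were below all 6 iADKO mice, the lowest of which was replicate 6 at 30.4 CPM.

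*Tfe3* (ENSMUSG00000000134, chrX:7628761-7641444, plus strand) was at 72.3 to 89.0 CPM in fl/fl (median 74.3, n = 7) and 72.9 to 106 CPM in iADKO (median 90.3, n = 6). Its log2 fold change of 0.21 (95% interval 0.042 to 0.37, edgeR adjusted p = 0.0546) missed the threshold. iADKO replicate 6 and fl/fl replicate 7 were at nearly the same level, 72.9 and 72.3 CPM, and fl/fl replicate 5 lay above 3 iADKO mice. It passed the threshold without iADKO replicate 6 (log2 fold change 0.26, edgeR adjusted p = 0.0091).

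With each mouse left out in turn, 10 of the 18 genes stayed past the threshold in all 13 fits: *Ctsh*, *Ctsz*, *Gla*, *Grn*, *Gusb*, *Lgmn*, *Lipa*, *Man2b1*, *Mitf* and *Psap*. The number of members higher in iADKO was 10 without iADKO replicate 4 and 23 without fl/fl replicate 5. In those fits 1817 of 16907 and 3319 of 16638 genes tested were higher, against 2367 of 16753 with all mice. *Asah1* missed the threshold in 1 fit, without iADKO replicate 4 (edgeR adjusted p = 0.0551). *Ctsa* missed it in 2 fits, without iADKO replicates 4 and 5, and *Tfeb* in 2, without iADKO replicates 2 and 4, with edgeR adjusted p at most 0.0531 and 0.0545. *Lamp1* missed it in 7 fits (at most 0.0716), *Scarb2* in 8 (at most 0.0894), *Ctsc* in 9 (at most 0.0691), *Hexa* in 9 (at most 0.067) and *Cd63* in 9 (at most 0.0945). The mice concerned were fl/fl replicates 1, 2, 3, 4 and 6 and iADKO replicates 1 to 5, and in none of these fits did the sign of a called member change. Without a filter on low counts, *Cd63*, *Lamp1* and *Scarb2* missed the threshold (edgeR adjusted p = 0.0583, 0.0836 and 0.0715), as did *Scarb2* by limma on the rlog values (0.0516).

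The numbers in the library names fall into 4 ranges, and what they stand for is not given in the sources used here. The labels give all 13 libraries the same batch date. Libraries numbered 722 to 727 (2 per genotype) had positive differences in mean log2 CPM for 27 of the 38 members. The median difference was 0.12, against 0.0061 for all genes tested. These 4 libraries include those of fl/fl replicate 5, numbered 726, and iADKO replicate 6, numbered 727. Those numbered 747 to 765 (3 fl/fl, 2 iADKO) had positive differences for 31 of the 38 members. Their median was 0.34, against 0.029 for all genes tested. The remaining ranges, 706 to 707 and 974 to 975, hold 1 genotype each and allow no comparison. With the range as a block in edgeR, 1 member (*Ctsz*) passed the threshold, and the higher calls among all 16753 genes tested fell to 784. At an unadjusted p under 0.05, 15 members and 2491 of all genes were higher. The log2 fold changes in that fit were 0.80 (SE 0.26) for *Lgmn*, 0.80 (SE 0.26) for *Gla* and 0.73 (SE 0.25) for *Lipa*, where the fit without the block gave 0.78, 0.83 and 0.76 with smaller SEs, and the median over the 38 members was 0.21 with the block and 0.25 without.

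Genes of the same pathway outside the 38 were counted from 6 further lists. Of these 145 genes, 142 were tested, and 26 were higher and 33 lower by the iADKO label, against 14.1% and 16.3% of all genes tested. Their median log2 fold change was -0.018. Without fl/fl replicate 5, 40 were higher and 43 lower, and in that fit 3319 of all 16638 genes tested were higher and 3285 lower. The difference between the shares of higher genes, 18 of 38 members and 26 of 142 others, was not tested. With the macrophage marker mean as a covariate, 0 of the 142 were higher and 2 lower. At an unadjusted edgeR p under 0.05 in that fit, 2 were higher and 15 lower, against 1311 and 1399 of all 16753 genes tested. With the library-number range as a block 5 were higher and 14 lower. *Rnaset2a*, *Rnaset2b* and *Lamp3* did not pass the filter on low counts, and the first 2 are near-identical copies between which reads are uncertain.

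Among 28 further hydrolases, 4 were higher and 5 lower. For this list and those below, the shares over all genes tested were 14.1% higher and 16.3% lower. Without fl/fl replicate 5, 10 of the hydrolases were higher. The number lower was 1 without iADKO replicate 2, 2 without iADKO replicate 4, and 3 without any of fl/fl replicates 1, 3 and 4, iADKO replicates 1 and 5, or a filter on low counts, and it was 8 by DESeq2's Wald test. With the range block, 1 was higher and 1 lower, and with the replicate number as a block 6 were higher and 2 lower. *Dnase2a*, the acid DNase that degrades engulfed DNA, had the highest log2 fold change past the threshold, 0.62 (SE 0.16, edgeR adjusted p = 0.0117). *Acp5*, tartrate-resistant acid phosphatase, had the lowest, -0.37 (SE 0.11, edgeR adjusted p = 0.0251).

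Among 28 further membrane proteins and transporters, 9 were higher and 5 lower, and 2 and 3 with the range block. *Slc15a3*, a peptide and histidine transporter, was at 10.5 to 33.8 CPM in fl/fl (median 12.5, n = 7) and 24.9 to 43.0 CPM in iADKO (median 36.5, n = 6), a log2 fold change of 1.05 (SE 0.28, edgeR adjusted p = 0.0152). *Mfsd8*, a lysosomal ion channel gene, was at 58.3 to 91.8 CPM in fl/fl (median 71.5, n = 7) and 38.2 to 52.0 CPM in iADKO (median 45.1, n = 6), with no overlap between genotypes and a log2 fold change of -0.70 (SE 0.098, edgeR adjusted p = 0.000389). *Laptm4a*, with the most CPM, did not pass (log2 fold change -0.051).

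The V-ATPase, the proton pump of the lysosome, had 8 subunit genes higher and 3 lower of 19, and 2 and 1 with the range block. Only 5 were higher without a filter or without any of fl/fl replicates 2, 4 and 6 and iADKO replicates 2 to 5, and 6 were lower without fl/fl replicate 5. The number lower was 5 by DESeq2's Wald test. *Atp6v0d2*, a subunit variant known from osteoclasts and macrophages, was at 16.2 to 90.3 CPM in fl/fl (median 27.9, n = 7) and 46.8 to 101 CPM in iADKO (median 89.3, n = 6), a log2 fold change of 1.13 (SE 0.37, edgeR adjusted p = 0.0343). *Atp6v0e2* had the lowest log2 fold change, -0.54 (SE 0.14, edgeR adjusted p = 0.0102). *Atp6v1b2*, the subunit gene with the most CPM, was at 146 to 179 CPM in fl/fl (median 154, n = 7) and 191 to 258 CPM in iADKO (median 229, n = 6), with no overlap and a log2 fold change of 0.51 (SE 0.072, edgeR adjusted p = 0.000408).

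Enzyme sorting to the lysosome had 2 genes higher and 4 lower of 20. The number lower was 8 with DESeq2's size factors, by limma and by DESeq2's Wald test, which called 1, 1 and 2 higher. With the range block 0 were higher (2 at an unadjusted edgeR p under 0.05) and 3 lower. The number higher was 4 without fl/fl replicate 5 and 1 without any of fl/fl replicates 1, 2, 4 and 6 or iADKO replicates 1, 3 and 4. *Vps18*, of the tethering complexes that fuse late endosomes with lysosomes, had a log2 fold change of 0.25 (SE 0.054, edgeR adjusted p = 0.00446). *Sort1*, the sorting receptor sortilin, was at 572 to 1019.6 CPM in fl/fl (median 719, n = 7) and 408 to 586 CPM in iADKO (median 474, n = 6), a log2 fold change of -0.67 (SE 0.13, edgeR adjusted p = 0.0023), and had the most CPM of the list.

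Of 20 genes of MiT/TFE and mTORC1 control at the lysosome, 3 were higher and 5 lower. In edgeR 6 were higher without fl/fl replicate 5, 3 were lower without iADKO replicate 5, and with the range block 0 were higher (3 at an unadjusted p under 0.05) and 2 lower. *Fnip2*, a partner of folliculin, had a log2 fold change of 0.69 (SE 0.19, edgeR adjusted p = 0.0153). *Mtor*, the kinase that holds Tfeb in the cytoplasm, had one of -0.44 (SE 0.085, edgeR adjusted p = 0.00222). *Rragc*, with the most CPM, did not pass (log2 fold change -0.16).

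Of the 27 autophagy genes, 0 were higher and 11 lower, against 14.1% and 16.3% of all genes tested, with a median log2 fold change of -0.12. By edgeR, 0 of the 27 were higher at an unadjusted p under 0.05, and DESeq2's Wald test and limma also called 0 higher. *Optn*, an autophagy receptor, had the lowest log2 fold change, -0.44 (SE 0.12, edgeR adjusted p = 0.0156). *Sqstm1*, the receptor with the most CPM, had a log2 fold change of 0.0077 and did not pass. With DESeq2's size factors in place of TMM, 12 were lower and 0 higher. The number lower was 7 without a filter on low counts, 4 with the library-number range as a block, and 7 without fl/fl replicate 1 or iADKO replicate 2. With the macrophage marker mean as a covariate, 0 of the 27 were lower, and 4 at an unadjusted edgeR p under 0.05. In that fit 1399 of all 16753 genes tested were lower at that unadjusted p.

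Promoters were searched because the members that rose include MiT/TFE genes and genes of the kind these factors are known to bind. RefSeq promoter windows (GRCm38.p6, 250 bases before to 50 after the transcription start) were matched by symbol for 33 of the 38 members, in 41 windows; *Asah1*, *Ctsb*, *Ctsh*, *Galns* and *Npc1* had none. The E-box CACGTG, which reads the same on both strands, was in 11 of the 41 windows (26.8%), against 7.15% of all 32851 windows in the table. The longer TCACGTGA, which contains the E-box and is also its own reverse complement, was in 4 windows (9.76%), against 0.974% of all. GC content, which can change how often such letters occur, was 56.3% in the median member window and 52.7% over all windows.

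Members with the motif were found on both sides of the threshold. CACGTG was in a window of 4 of 16 called genes and of 7 of 17 genes not called, and TCACGTGA in 2 of 16 and 2 of 17. The windows with CACGTG were those of *Ctsa*, *Ctsd*, *Ctsl*, *Gaa*, *Gla*, *Glb1*, *Lamp1*, *Lgmn*, *Mcoln1*, *Naglu* and *Sgsh*. That of *Lamp1* held 4 copies, starting 61, 45, 28 and 15 bases before the transcription start. A match describes the letters of the window and says nothing of whether a factor binds there.

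The stretches around the matches are shown for the 4 genes with TCACGTGA, from the largest to the smallest absolute log2 fold change, so that called and uncalled members can be read side by side (*Gla* 0.83, *Ctsa* 0.38, *Ctsd* 0.064 and *Mcoln1* -0.035). The sequences are written 5′ to 3′ on the strand of the gene, with the motifs in capitals. That of *Gla* is chrX:134601184-134601242 (minus strand), that of *Ctsa* chr2:164833751-164833793 (plus strand), that of *Ctsd* chr7:142387910-142388077 (minus strand) and that of *Mcoln1* chr8:3500438-3500489 (plus strand), all on GRCm38.p6.
Gla: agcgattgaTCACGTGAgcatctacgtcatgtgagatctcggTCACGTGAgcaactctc
Ctsa: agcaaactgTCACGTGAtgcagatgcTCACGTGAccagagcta
Ctsd: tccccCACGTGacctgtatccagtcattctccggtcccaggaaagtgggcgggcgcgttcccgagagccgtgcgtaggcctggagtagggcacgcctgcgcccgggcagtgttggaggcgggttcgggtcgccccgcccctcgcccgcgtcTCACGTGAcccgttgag
Mcoln1: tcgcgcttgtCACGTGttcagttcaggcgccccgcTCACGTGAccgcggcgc

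*Gla* and *Ctsa*, both past the threshold, hold 2 copies of TCACGTGA each. In *Gla* the inner CACGTG starts 227 and 194 bases before the transcription start, and in *Ctsa* 12 bases before it and at base 6 after it. *Ctsd* and *Mcoln1*, which did not pass, hold 1 copy each and a further CACGTG.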

How the data were processed

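For 33618 Ensembl genes the authors deposited the number of counts in each library, not normalized. They also deposited log2 values, made by the regularized log (rlog) of DESeq2. Per the labels and the submitters' processing notes, reads were checked with FastQC 0.12.1 and aligned with STAR 2.7.11a to mm39. The libraries kept strand information, per the study's methods, but the counting tool, its strand setting and the DESeq2 design are not given in the sources used here.

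Genes were named and placed on GRCm39 with GENCODE vM39, in which 33184 identifiers were found. In R 4.3.3, edgeR 4.0.16's filterByExpr left 16753 genes, counts were normalized by TMM, and the genotypes were compared by the robust quasi-likelihood test with Benjamini-Hochberg adjustment over all genes at a threshold of 0.05. The SE is the absolute log2 fold change divided by the square root of F, and 95% intervals used the degrees of freedom of the same test. Log2 CPM used a prior count of 2. Levels per kb used the merged exon length. Fits were tested on simulated counts.

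Counts of any 2 mice of a genotype differed by more than counting error (chi-square per degree of freedom 8.16 to 88.8), so each library was counted separately. Errors describe the spread over mice.

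The members and the lists were chosen with earlier results of these data known. Described with every group's values by rule are the 4 highest and 4 lowest called members, the transcription factors, *Lamp1* and the member with the highest level per kb. From each further list, the highest and lowest called genes and the most abundant are named, from each marker list the most abundant. A gene that this rule would name is not reported here. Other members described with their levels, such as *Ctss*, *Npc1*, *Smpd1* and *Mcoln1*, were chosen after their values were seen. Alternatives were DESeq2's size factors, testing unfiltered genes, a minimum of 10 counts per library, a block for the replicate number or for the library-number range, the macrophage marker mean as a covariate, limma 3.58.1 on the rlog values, DESeq2 1.42.0, and each mouse left out. A fit without fl/fl replicate 5 and iADKO replicate 6 was added after seeing the data.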

Additional observations from a re-analysis of the deposited data

Results flagged for a closer look

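In 14 of the 76 groups examined (38 members in 2 genotypes), the highest or lowest mouse stood farther from the next than Dixon's 95% limit allows. Chance flags about 1 in 20 groups, and the members are not independent of each other, since their levels come from the same mice. All 14 fell on 2 mice. Genes outside the members were not examined in this way.

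In 8 groups the mouse was iADKO replicate 6, each time lower than the other 5 iADKO mice. It was at 208 CPM for *Ctsa*, where the others were at 272.4 to 308.6 CPM, and at 271.3 CPM for *Ctss*, where they were at 436.5 to 462.5 CPM. For *Lgmn* it was at 210.4 CPM (others from 302 CPM), for *Lipa* at 215 CPM (others from 303.3 CPM) and for *Man2b1* at 262.3 CPM (others from 355.7 CPM). It was at 98.16 CPM for *Gusb* (others from 133.6 CPM), at 30.44 CPM for *Mitf* (others from 39.72 CPM) and at 18.56 CPM for *Gla* (others from 26.81 CPM).

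In 6 groups the mouse was fl/fl replicate 5. It was higher than the other 6 fl/fl mice for *Man2b1* at 385.7 CPM (others up to 265.9 CPM), for *Grn* at 598.3 CPM (others up to 452.9 CPM) and for *Asah1* at 189 CPM (others up to 151.3 CPM). It was also higher for *Npc1* at 130.6 CPM (others up to 81.52 CPM) and *Sgsh* at 49.6 CPM (others up to 41.22 CPM). For *Smpd1* it was lower than the others, at 67.06 CPM against 89.13 CPM or more. The summed macrophage markers were 6105 CPM in this mouse and 3690 CPM in iADKO replicate 6, the highest of the fl/fl and the lowest of the iADKO mice. The same 2 mice stood apart in the summed adipocyte markers, at 7833 CPM (the lowest fl/fl mouse) and 7800 CPM (the highest iADKO mouse). They were also at the extremes of their genotypes in summed progenitor (4593 and 2771 CPM), mesothelial (580 and 260 CPM) and endothelial markers (687 and 813 CPM). The part of any of these cell types in these values was not tested.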

How the results depend on the processing

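The number of members higher in iADKO (18) was 15 to 19 with DESeq2's size factors, without a filter on low counts, with at least 10 counts in every sample, with limma on the rlog values and with DESeq2's Wald test, and 0 were lower in these fits. Without a filter, *Cd63*, *Lamp1* and *Scarb2* missed the threshold, and more genes were then tested. With the library-number range as a block, 1 member, 5 other pathway genes and 784 of all genes were higher, and 14 other pathway genes and 1202 of all genes were lower. The macrophage marker mean as a covariate left 0 members, 0 other pathway genes and 169 of all genes higher, and 1 member, 2 other pathway genes and 222 of all genes lower. The cause of these changes was not tested. Leaving out each mouse gave 10 to 23 members higher, 0 to 1 lower (*Smpd1*, without fl/fl replicate 5) and 18 to 40 other pathway genes higher. Over the same fits, 1769 to 3319 of all genes were higher and 2216 to 3285 lower. Without both fl/fl replicate 5 and iADKO replicate 6, a fit added after seeing the data, 25 members were higher and 1 (*Smpd1*) lower. Of all 16769 genes tested in that fit, 3282 were higher and 3910 lower.

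With the macrophage covariate, 15 members changed the sign of their log2 fold change, 0 of them past the threshold in that fit: *Ctsa* (-0.031), *Ctsb* (-0.040), *Ctsd* (-0.16), *Ctsk* (-0.20), *Ctsl* (-0.10), *Ctss* (-0.15), *Hexa* (-0.048), *Galns* (-0.17), *Neu1* (-0.088), *Man2b1* (-0.028), *Naglu* (-0.24), *Smpd1* (0.10), *Npc1* (-0.10), *Lamp2* (-0.13) and *Cd63* (-0.010). The range block changed that of *Ctsd* (-0.031), and leaving out both mice those of *Glb1* (0.038) and *Sgsh* (0.062). With single mice left out, estimates on both sides of 0 were found for *Tpp1* (-0.042 to 0.0069), *Glb1* (-0.073 to 0.018), *Sgsh* (-0.094 to 0.035) and *Ppt1* (-0.029 to 0.013), none of which was called.

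With the replicate block, fitted without fl/fl replicate 7, which has no partner, 20 members were higher (*Ctss* and *Npc1* joined) and 0 lower, *Ppt1* changed sign (0.013), and 2379 of all genes were higher and 2454 lower. The sources do not say that a number pairs mice. Same-numbered mice had correlations of their deviations between -0.026 and 0.22, and 2 of 6 correlated best with their own number.

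The members with the fewest counts were *Gla* and *Tfeb* (0.142% and 0.152% of the members' counts), and how far depth limits any member was not tested.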
